A study of Mus musculus with 2 samples.

Results

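The protein phosphatase genes other than the PHLPP pair were examined in 2 PHLPP1 CUT&Tag libraries of mouse alveolar macrophages. Members were the protein-coding RefSeq genes whose symbol starts with Ppp and a number, Ppm1, Dusp and a number, or Ptpn and a number, which gave 130 of 21887 protein-coding genes. By symbol, 89 fell in the serine/threonine class (Ppp and Ppm1), 24 in the dual-specificity class (Dusp) and 17 in the tyrosine class (Ptpn). The serine/threonine class held 24 genes of catalytic subunits or single-chain enzymes and 65 of regulatory subunits. The rule uses symbols only. PHLPP1, itself a phosphatase of the metal-dependent family, was the protein targeted by the antibody. CUT&Tag uses an antibody to guide a transposase to nearby DNA, and the fragments it cuts are sequenced. The treated library came from wild-type alveolar macrophages given interleukin-4 (IL-4, 20 ng/ml, 4 h) and the other from untreated cells, both obtained by bronchoalveolar lavage. Strain, sex, age and the number of mice behind each library are not given in the labels.

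Protein phosphatases remove phosphate from proteins and so oppose the kinases. The PPP family (PP1, PP2A, calcineurin, PP4, PP5 and PP6) pairs a few catalytic subunits with many regulatory subunits that choose the substrate, while the PPM family acts as single chains that need a metal ion. Dual-specificity phosphatases include the MAP kinase phosphatases, which switch off ERK, JNK and p38 and are classical feedback genes of activated macrophages. Among the PTPN tyrosine phosphatases, SHP-1 (Ptpn6), PTP1B (Ptpn1) and TCPTP (Ptpn2) act on JAK and STAT proteins, the route by which IL-4 receptors signal.

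Each group held 1 library, so no difference between the groups has a replicate check or a p-value. The IL-4 list held 226476 regions and the untreated list 165968, over constant backgrounds of 15.9 and 13.9 fragments. The weakest regions listed had a −log10 q of 0.599 with IL-4 and 0.433 untreated, so a listed region need not be a significant one. A fold is the authors' own ratio of the fragment pileup at a region's summit to the background in the same library, with 1 added to each before division and with no scaling of one library to the other. The counting intervals given with folds are exact Poisson intervals of the summit pileup, with the background held fixed. They cover the counting error of the pileup only. No library with a control antibody was analysed here. Of 14 alveolar macrophage marker genes matched, 14 carried a region in each library, and 13 with IL-4 and 6 untreated had one of −log10 q 5 or more. A region was over 8 and 7 of 8 epithelial, 7 and 2 of 7 lymphocyte, 4 and 3 of 6 granulocyte and 6 and 6 of 7 fibroblast or endothelial markers, and past that limit the counts were 6 and 3, 2 and 0, 3 and 2, and 5 and 3. Regions over genes do not measure RNA, and the labelled cell type was not checked in another way.

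Nearly all phosphatase genes lay under a listed PHLPP1 region, weak ones included. Counting every region over the gene body and 2 kb each side, 126 of 130 members (96.9%, exact 95% interval 92.3 to 99.2) had one in the IL-4 library, against 116 (89.2%, 82.6 to 94.0) in the untreated library. The background was 84.7% of all protein-coding genes in the IL-4 library and 77.5% in the untreated library. A region in both was found over 114 members (87.7%), against a background of 75.6%. With the limit set at −log10 q 5 or more, the members numbered 119 (91.5%, 85.4 to 95.7) with IL-4 and 84 (64.6%, 55.8 to 72.8) untreated, beside 71.2% and 49.2% of all genes. Past that limit 35 members had a region with IL-4 alone (background 22.9%) and 0 had one untreated alone (background 0.941%). No test of the members against other genes was made. All 17 tyrosine genes passed this limit in the IL-4 library and 12 in the untreated library. The dual-specificity class gave 22 and 15 of 24, and the serine/threonine class 80 and 57 of 89. Within that class the 24 catalytic genes all passed with IL-4 and 19 did so untreated, while the 65 regulatory genes gave 56 and 38.

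**Figure D1:**
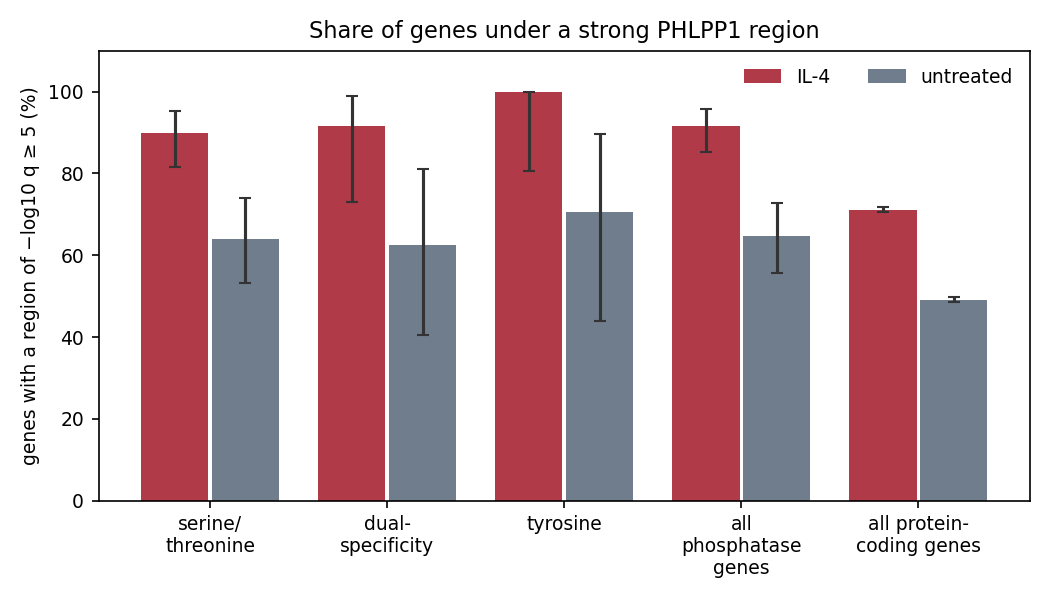
Bars give the percentage of genes with at least 1 region of −log10 q 5 or more over the gene body and 2 kb each side, IL-4 beside untreated, with exact 95% binomial intervals. The bars of the 3 phosphatase classes reach 89.9% to 100% with IL-4 and 62.5% to 70.6% untreated, and those of all protein-coding genes 71.2% and 49.2%.

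Gene length moves with these counts. Members had a median length of 22.8 kb and all protein-coding genes 17.2 kb. By class the medians were 59.1 kb for tyrosine, 23.7 kb for serine/threonine and 11.8 kb for dual-specificity genes. Among genes under 5 kb, 17 of 23 members passed the q limit in the IL-4 library and 11 in the untreated library, beside 37.0% and 20.9% of all genes of that length. In the band of 40 to 100 kb it was 30 and 20 of 31 members, beside 89.2% and 67.1% of all genes. With IL-4 the member share was above that of all genes in every length band. Untreated, it was below at 5 to 15 kb (38.1% against 42.9%) and at 40 to 100 kb (64.5% against 67.1%). It was above under 5 kb, at 15 to 40 kb (76.3% against 54.4%) and over 100 kb (94.1% against 81.8%). The part of length in the totals was not tested.

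The strongest region of a member, the one with the highest fold, had a median fold of 4.42 in the IL-4 library and 3.49 in the untreated library, beside 3.68 and 2.95 over all protein-coding genes. Tyrosine genes had medians of 4.98 and 3.81, serine/threonine genes 4.59 and 3.67, and dual-specificity genes 4.15 and 3.21. This is also the order of the median gene lengths of the classes. Over all protein-coding genes the medians were 2.73 and 2.48 under 5 kb, and 4.15 and 3.18 at 40 to 100 kb. The part of length in the class medians was not tested. Catalytic serine/threonine genes had medians of 5.54 and 4.43, and regulatory ones 4.202 and 3.22. In each of these groups the IL-4 median was the higher one, as it was over all genes.

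Of the 114 members with a region in both libraries, 108 had the higher fold with IL-4, where the background was 84.4% of genes. The IL-4 fold was at least 1.5 times the untreated fold for 27 members (23.7%, against a background of 20.8%) and at most 1/1.5 of it for none (background 0.127%). Divided by the median ratio of all genes, 1.25, 5 members still exceeded 1.5, beside a background of 3.21%. They were Ppp1r14b, Ppp2r5b, Dusp12, Ptpn18 and Ppp2r1b. In each of these 5 the untreated fold was below 2.95, the untreated median over all protein-coding genes. The untreated region of Dusp12 had a −log10 q of only 1.23, so these ratios rest on weak untreated regions. Ppp1r14b is counted among the 27 and the 5, although its ratio rests on the edge of its window, as described below. The median ratio was 1.30 over members, 1.34 in the serine/threonine, 1.21 in the dual-specificity and 1.24 in the tyrosine class. The shares past 1.5 times lie near their backgrounds, and they are no result about phosphatase genes as a group. The 108 of 114 with the higher fold lay further above the background of 84.4%, and that difference was not tested. Counting intervals of the 2 folds lay apart for 17 members with the IL-4 fold higher (background 11.6%) and for 0 with it lower (background 0.0665%). These intervals make no allowance for the median ratio of 1.25 over all genes.

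**Figure D2:**
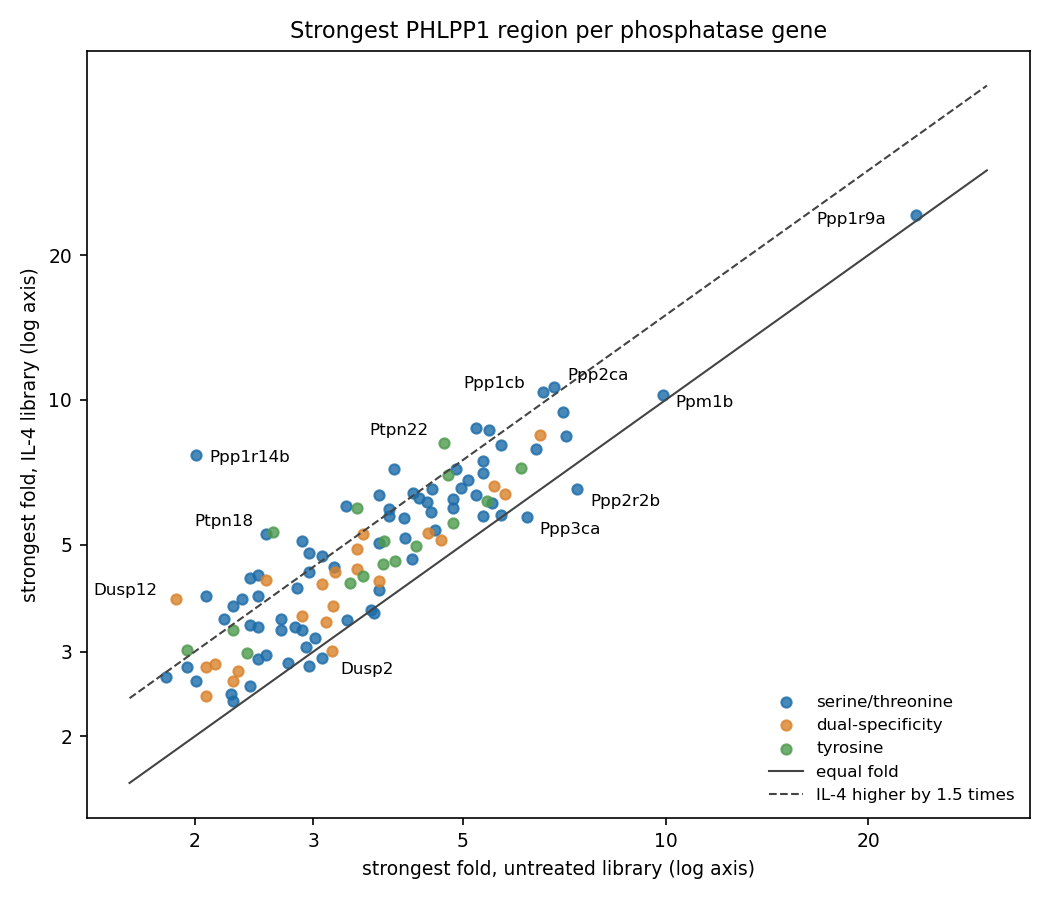
Each point is 1 of the 114 phosphatase genes with a region in both libraries, placed by the fold of its strongest region in the untreated library (horizontal log axis) and the IL-4 library (vertical log axis) and coloured by class. Most points lie above the line of equal fold and 27 on or above the dashed line of 1.5 times. Ppp1r14b stands far above it at 3.81 times, a ratio that rests on the edge of its window.

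The strongest region of a member most often sat at a gene start. The start and strand were known for 105 members. Of these, 88 had a region within 1 kb of a start in the IL-4 library and 79 in the untreated library, beside backgrounds of 66.2% and 55.2%. The strongest region itself had its summit there for 60 of 102 members with IL-4 (background 51.5%) and 57 of 94 untreated (background 51.1%). Among dual-specificity genes this held for 12 of 18 in both libraries, and among tyrosine genes for only 6 of 15 with IL-4 and 4 of 14 untreated. For 86 of the 114 members with a region in both (background 70.2%), the strongest regions of the libraries overlapped.

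**Figure D3:**
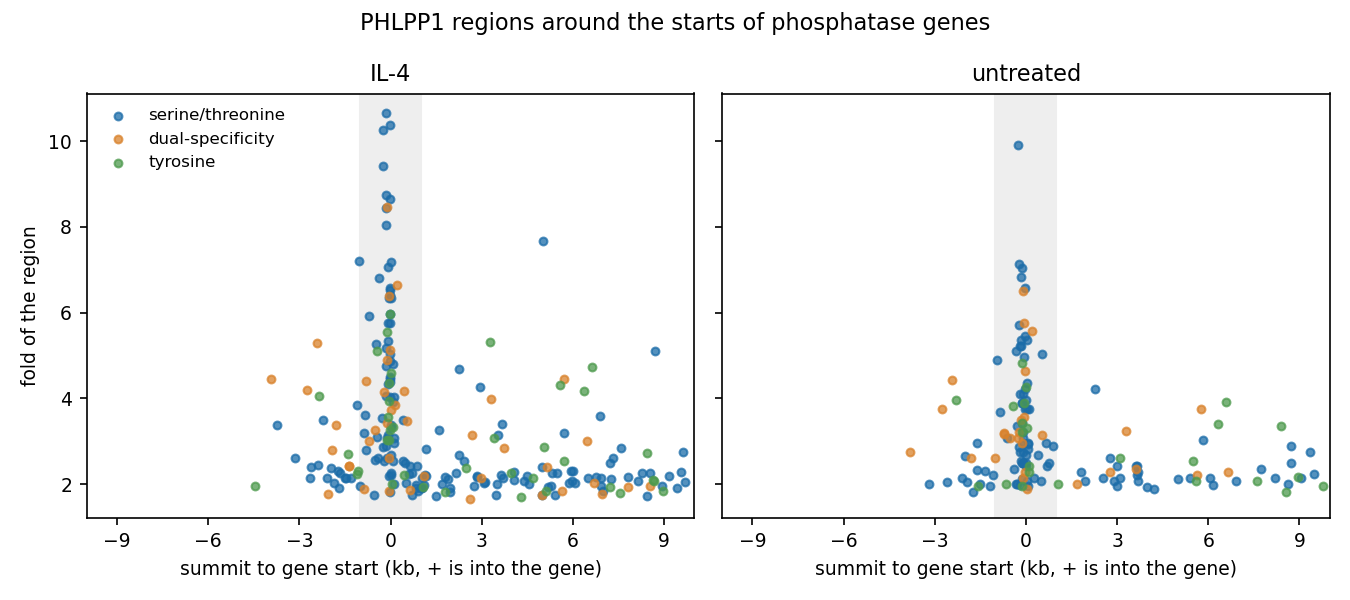
Each point is a region over a phosphatase gene whose start is known, placed by the distance of its summit from the nearest start in kb (positive into the gene) and by its fold, with the IL-4 library on the left and the untreated library on the right. The shaded band marks 1 kb on each side of the start, and every region above a fold of 6 in view lies in or beside it except the Ppp1r14b region at 5006 bases in the IL-4 library.

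The promoter sequence was at hand for the same 105 genes (128 promoters, from 250 bases before to 50 bases after the start). Member promoters had a median GC content of 63.0%, beside 56.3% over all promoters, and a median ratio of observed to expected CpG of 0.791, beside 0.567. The 75 member promoters under a region in both libraries had medians of 63.7% and 0.840, and the 37 under no region 53.7% and 0.487. Over all promoters the same split gave 62.0% and 0.788, and 49.3% and 0.274, so this composition goes with regions in general.

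Of 10 motifs searched on both strands, TGACGTCA, the full cAMP response element bound by CREB and ATF factors, was in the promoters of 9 of 105 members (8.57%), beside 2.54% of all genes. These genes were Dusp1, Dusp8, Ppm1a, Ppm1d, Ppp1r12c, Ppp1r15a, Ppp2ca, Ppp2r2d and Ptpn11. The motif was in 9 (12%) of the 75 member promoters under a region in both libraries, beside 3.58% of all such promoters. It was in none of the 37 under no region, beside 1.05% of all such promoters, and 37 are too few to read that against it. The 9 promoters belong to 8 genes, since both Ppp2r2d promoters overlap and share the site, while the Dusp8 promoter lay under a region with IL-4 alone. This motif was picked out after all 10 were seen. The letters GGGCGG, of SP and KLF factors, were in 70.5% of member genes and 49.2% of all genes. Among promoters under a region in both libraries the shares were closer, 73.3% of member promoters and 68.8% of all. The STAT6 type of palindrome (TTC and GAA with 4 bases between them) was in 5.71% of member genes and 7.37% of all genes, and the general STAT pattern TTCNNNGAA in 6.67% and 8.92%. TGANTCA, a loose form of the AP-1 site that allows any middle base, was in 1 member, and GTAAACA, of FOXO factors, in none. The shares of all genes were 8.12% and 3.45%. CCAAT, of NF-Y, was in 39.0% of members and 42.3% of all genes, the E-box CACGTG in 4.76% and 8.91%, the PU.1 or ETS letters GAGGAAGT in 3.81% and 3.64%, and the NRF1 type of palindrome in 2.86% and 1.47%. A match gives the letters only and not a bound site.

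The following promoters are shown because they carry the response element under a PHLPP1 region in both libraries and span all 3 classes. They come from RefSeq on GRCm38.p6, run 5′ to 3′ along the gene's strand, and have TGACGTCA in capitals. The intervals are chr17:26508423-26508722, minus strand, for Dusp1, chr11:52098574-52098873, plus strand, for Ppp2ca, chr11:85311004-85311303, plus strand, for Ppm1d, chr7:45526219-45526518, minus strand, for Ppp1r15a, and chr5:121191348-121191647, minus strand, for Ptpn11.
Dusp1: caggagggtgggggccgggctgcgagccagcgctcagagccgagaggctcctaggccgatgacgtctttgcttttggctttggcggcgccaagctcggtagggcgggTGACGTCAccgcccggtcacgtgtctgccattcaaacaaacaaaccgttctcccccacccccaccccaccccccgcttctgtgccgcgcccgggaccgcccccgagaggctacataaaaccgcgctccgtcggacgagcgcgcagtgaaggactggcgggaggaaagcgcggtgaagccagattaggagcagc
Ppp2ca: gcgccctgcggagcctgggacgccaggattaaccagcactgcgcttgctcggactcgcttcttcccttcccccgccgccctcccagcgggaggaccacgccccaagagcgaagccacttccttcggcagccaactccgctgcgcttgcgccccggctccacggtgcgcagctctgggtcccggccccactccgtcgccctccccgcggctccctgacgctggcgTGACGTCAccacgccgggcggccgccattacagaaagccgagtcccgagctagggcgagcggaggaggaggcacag
Ppm1d: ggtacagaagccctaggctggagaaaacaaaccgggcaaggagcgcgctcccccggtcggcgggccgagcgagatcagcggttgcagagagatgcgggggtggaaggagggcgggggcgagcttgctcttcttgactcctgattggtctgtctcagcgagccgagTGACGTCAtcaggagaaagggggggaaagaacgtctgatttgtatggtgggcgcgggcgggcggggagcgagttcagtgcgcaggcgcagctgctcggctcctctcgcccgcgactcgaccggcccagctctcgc
Ppp1r15a: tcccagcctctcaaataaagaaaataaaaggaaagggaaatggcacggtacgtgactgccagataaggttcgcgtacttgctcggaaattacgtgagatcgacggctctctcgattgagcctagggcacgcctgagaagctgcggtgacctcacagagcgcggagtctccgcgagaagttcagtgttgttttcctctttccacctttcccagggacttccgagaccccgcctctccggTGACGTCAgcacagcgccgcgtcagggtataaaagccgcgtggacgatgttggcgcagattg
Ptpn11: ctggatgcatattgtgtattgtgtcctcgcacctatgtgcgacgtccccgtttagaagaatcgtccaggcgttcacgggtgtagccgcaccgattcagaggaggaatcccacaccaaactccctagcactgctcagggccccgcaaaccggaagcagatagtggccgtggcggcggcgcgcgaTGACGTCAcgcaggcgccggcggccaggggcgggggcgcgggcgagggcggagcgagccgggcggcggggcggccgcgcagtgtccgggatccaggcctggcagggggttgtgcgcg

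In the IL-4 library the summit lay 7 bases after the start of Dusp1, -150 bases from that of Ppp2ca, -87 from that of Ppm1d, -4 from that of Ppp1r15a and -39 from that of Ptpn11, where a negative distance is before the start. In the untreated library the distances were -218, -151, -115, -96 and -124 bases in the same order of genes. All 10 summits thus lay within the printed windows. The GC content of these promoters ran from 55.3% in Ppp1r15a to 71.7% in Ppp2ca.

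Among the catalytic genes of PP1 and PP2A, Ppp2ca and Ppp1cb carried the strongest regions. Ppp2ca, the main PP2A catalytic gene (chromosome 11, 52098824 to 52122749), had a fold of 10.7 (95% counting interval 9.18 to 12.3, 183 fragments) in the IL-4 library, against 6.84 (5.58 to 8.30, 101 fragments) in the untreated library. That region, at chromosome 11, 52098239 to 52098980 in the IL-4 list, covers the promoter shown above. Its intervals did not overlap. Ppp1cb, the beta isoform of PP1 (chromosome 5, 32458848 to 32493713), had a fold of 10.4 (95% counting interval 8.90 to 12.03, 174 fragments) in the IL-4 library, against 6.57 (5.34 to 8.001, 97 fragments) in the untreated library. Its region lay at chromosome 5, 32458624 to 32459425 with the summit at -31 bases from the start in both libraries, and its intervals were apart as well. The gamma isoform Ppp1cc was at 6.58 (5.44 to 7.88) in the IL-4 library, against 4.96 (3.90 to 6.22) in the untreated library, with intervals that overlapped. Ppp1ca, the alpha isoform, was nearly equal at 5.76 (4.80 to 6.86) in the IL-4 library, against 5.70 (4.56 to 7.04) in the untreated library. The Ppp1ca region also lay within 1 kb of an end of Tbc1d10c. Ppp2cb, the second PP2A catalytic gene, was far weaker than Ppp2ca at 3.498 (2.67 to 4.50) in the IL-4 library, against 2.21 (1.53 to 3.10) in the untreated library. Ppp1ccb, a further PP1 catalytic gene by symbol, was at 3.62 (2.77 to 4.64) in the IL-4 library, against 3.69 (2.79 to 4.79) in the untreated library, with intervals that overlapped. The other PP1 genes and Ppp2ca stood above Ppp1ccb and Ppp2cb in both libraries, and of these 6 genes only Ppp2ca and Ppp1cb had intervals apart.

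Among the other PPP enzymes, Ppp6c, the PP6 catalytic gene, was at 5.04 (4.03 to 6.23) in the IL-4 library, against 3.75 (2.85 to 4.87) in the untreated library. Ppp4c, of PP4, was at 3.38 (2.57 to 4.37) in the IL-4 library, against 2.82 (2.04 to 3.797) in the untreated library, and Ppp5c, the single-chain PP5, at 3.07 (2.45 to 3.79) in the IL-4 library, against 2.93 (2.25 to 3.75) in the untreated library. All 3 pairs of intervals overlapped. In these genes the strongest region lay at the start in both libraries.

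PP2A also needs a scaffold and a B subunit that sets its targets. Ppp2r1a, the main scaffold gene, had a fold of 8.43 (95% counting interval 7.28 to 9.71, 190 fragments) in the IL-4 library, against 7.13 (5.93 to 8.49, 123 fragments) in the untreated library, while its paralog Ppp2r1b was at 3.91 (3.03 to 4.97) in the IL-4 library, against 2.08 (1.42 to 2.94) in the untreated library, a ratio of 1.88 with intervals apart. The B56 genes, whose subunits bring PP2A to many signalling proteins, were well covered. Ppp2r5a led them with a fold of 9.43 (95% counting interval 8.18 to 10.8, 203 fragments) in the IL-4 library, against 7.04 (5.76 to 8.52, 104 fragments) in the untreated library. Ppp2r5c was at 7.20 (6.16 to 8.36) in the IL-4 library, against 4.89 (3.91 to 6.05) in the untreated library and Ppp2r5b at 5.28 (4.24 to 6.49) in the IL-4 library, against 2.55 (1.81 to 3.49) in the untreated library, both with intervals apart. Of the 12 B subunit genes of all families, 11 carried a region in both libraries, where the background was 75.6%, and their median fold was 5.75 with IL-4 and 4.83 untreated. The exception was Ppp2r3d, which had no region in either library. The 12 genes had a median length of 51.7 kb. Of all genes of 40 to 100 kb, 96.4% had a region with IL-4 and 93.2% untreated.

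Ppp2r2b, a brain-enriched B subunit gene on chromosome 18, ran against the general direction. It held 44 regions in the IL-4 library and 50 in the untreated library, and its strongest region, inside the gene at chromosome 18, 42913646 to 42914167, was at 6.52 (5.37 to 7.86) in the IL-4 library, against 7.40 (6.16 to 8.82) in the untreated library. The ratio of 0.882 was the lowest of all members, but the intervals overlapped.

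Calcineurin is the calcium-dependent phosphatase that activates NFAT factors. Its catalytic gene Ppp3ca also had the lower fold with IL-4, at 5.72 (4.75 to 6.82) in the IL-4 library, against 6.22 (5.08 to 7.54) in the untreated library, and again the intervals overlapped. The regulatory gene Ppp3r1 went the other way with a fold of 7.17 (95% counting interval 6.01 to 8.50, 131 fragments) in the IL-4 library, against 3.96 (3.02 to 5.09, 58 fragments) in the untreated library, a ratio of 1.81 with intervals apart, and Ppp3cb was at 4.80 (3.82 to 5.96) in the IL-4 library, against 2.95 (2.15 to 3.95) in the untreated library. Ppp3cc, the third catalytic gene, had 2 regions in the IL-4 library, the stronger with a fold of 2.79, and none in the untreated library. Ppp3r2 had 2 weak regions in the untreated library alone, at a fold of up to 2.15.

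Of the regulatory genes, those that direct PP1 to eIF2α during stress were both marked at an end. Ppp1r15b, the constitutive form CReP, had a fold of 7.89 (95% counting interval 6.87 to 9.03, 212 fragments) in the IL-4 library, against 6.43 (5.28 to 7.76, 106 fragments) in the untreated library. Ppp1r15a, the inducible form GADD34, was at 4.39 (3.45 to 5.50) in the IL-4 library, against 2.95 (2.15 to 3.95) in the untreated library. The Ppp1r15a region also lay within 1 kb of an end of Plekha4. The 41 PP1 regulatory genes had lower medians than the members as a whole, 3.58 with IL-4 and 2.95 untreated. Of the 41, 9 (22.0%, 10.6 to 37.6) were marked with IL-4 alone, where the background was 9.10%. Past the q limit it was 13 (31.7%, 18.1 to 48.1), an interval that holds the background of 22.9%. Other subgroups were looked at as well, and no test was made. Ppp1r13b, which encodes the p53 partner ASPP1, was one of 6 members with the lower fold under IL-4, at 2.91 with IL-4 and 3.08 untreated, in different places.

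The highest fold of any member lay inside Ppp1r9a (neurabin, an actin-binding PP1 partner known from neurons), 20.7 kb from the start at chromosome 6, 4923699 to 4924331. It reached a fold of 24.2 (95% counting interval 22.7 to 25.8, 970 fragments) in the IL-4 library, against 23.6 (22.0 to 25.2, 900 fragments) in the untreated library. The local background there was 39.1 fragments in the IL-4 library and 37.2 in the untreated library, well above the constant backgrounds. At the start of Ppp1r9a the folds were only 3.14 and 2.48. Regions prone to mapping artefacts were not removed here, and whether this is one was not tested.

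Ppp1r14b, an inhibitor subunit of PP1, had the highest ratio of all 16550 protein-coding genes with a region in both libraries, 3.81, and this rests on the edge of the window. The IL-4 region at chromosome 19, 6979211 to 6980826, with a fold of 7.67, reached into the window that ends at 6979324. The untreated region at the same place began at 6979569, outside the window, and so was not counted, although its fold was 6.19. Both lie at an end of Fkbp2. At the start of Ppp1r14b itself the folds were 2.54 with IL-4 and 2.01 untreated, a much smaller difference.

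All 12 of the metal-dependent Ppm1 genes, relatives of PHLPP1, carried a region in both libraries, beside 75.6% of all genes. Of all genes of 15 to 40 kb, 92.3% had a region with IL-4 and 86.0% untreated. The 12 Ppm1 genes had a median length of 33.4 kb. Ppm1b, which acts on stress kinases and IKKβ, led them with a fold of 10.3 (95% counting interval 9.10 to 11.5, 284 fragments) in the IL-4 library, against 9.90 (8.58 to 11.4, 199 fragments) in the untreated library, close to equal. Ppm1f was at 8.64 (7.42 to 10.02) in the IL-4 library, against 5.46 (4.38 to 6.73) in the untreated library and Ppm1k, the mitochondrial enzyme that activates branched-chain amino acid breakdown, at 8.73 (7.50 to 10.1) in the IL-4 library, against 5.23 (4.15 to 6.50) in the untreated library, both with intervals apart. Ppm1a, a phosphatase of SMAD and p38, was at 6.35 (5.22 to 7.66) in the IL-4 library, against 5.23 (4.14 to 6.52) in the untreated library, and Ppm1d, the p53-induced WIP1, at 5.75 (4.67 to 7.01) in the IL-4 library, against 3.89 (2.96 to 5.02) in the untreated library. Ppm1g was at 6.15 with IL-4 and 4.43 untreated, in a region at the far end of the gene, within 1 kb of an end of Zfp513. Ppm1l, a long gene, held 58 regions in the IL-4 library and 34 in the untreated library, the most of any member with IL-4, while Ppp2r2b held the most untreated.

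The MAP kinase phosphatases were marked without IL-4 as well. Of 10 genes, 9 carried a region in both libraries (background 75.6%), and 9 passed the q limit with IL-4 and 8 untreated (backgrounds 71.2% and 49.2%). The intervals were apart for 0 of the 9, where the background was 11.6%, and 9 genes are too few to read that count against it. Dusp6, which acts on ERK, was strongest with a fold of 6.38 (95% counting interval 5.34 to 7.57, 130 fragments) in the IL-4 library, against 5.77 (4.62 to 7.11, 85 fragments) in the untreated library. Dusp10, which acts on JNK and p38, was at 5.13 (4.27 to 6.11) in the IL-4 library, against 4.64 (3.70 to 5.73) in the untreated library, in a region within 1 kb of an end of 1700056E22Rik. Dusp5, a nuclear ERK phosphatase, was at 4.90 (3.93 to 6.04) in the IL-4 library, against 3.49 (2.61 to 4.56) in the untreated library. Dusp1, the early-response gene MKP-1 (chromosome 17, 26505591 to 26508472), had its single region over the promoter shown above, at 3.73 (3.03 to 4.54) in the IL-4 library, against 3.21 (2.45 to 4.14) in the untreated library. Dusp2, also nuclear, had the higher value without IL-4, 3.01 with IL-4 and 3.20 untreated. Dusp4, a nuclear ERK phosphatase, differed most, at 4.22 (3.34 to 5.26) in the IL-4 library, against 2.55 (1.81 to 3.49) in the untreated library, a ratio of 1.66. Dusp16, which acts on JNK and p38, held 12 regions in the IL-4 library and 7 in the untreated library, with strongest folds of 4.45 with IL-4 and 3.49 untreated at different places. Dusp9, on chromosome X, had 1 weak region, found with IL-4 alone, at a fold of 2.25.

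**Figure D4:**
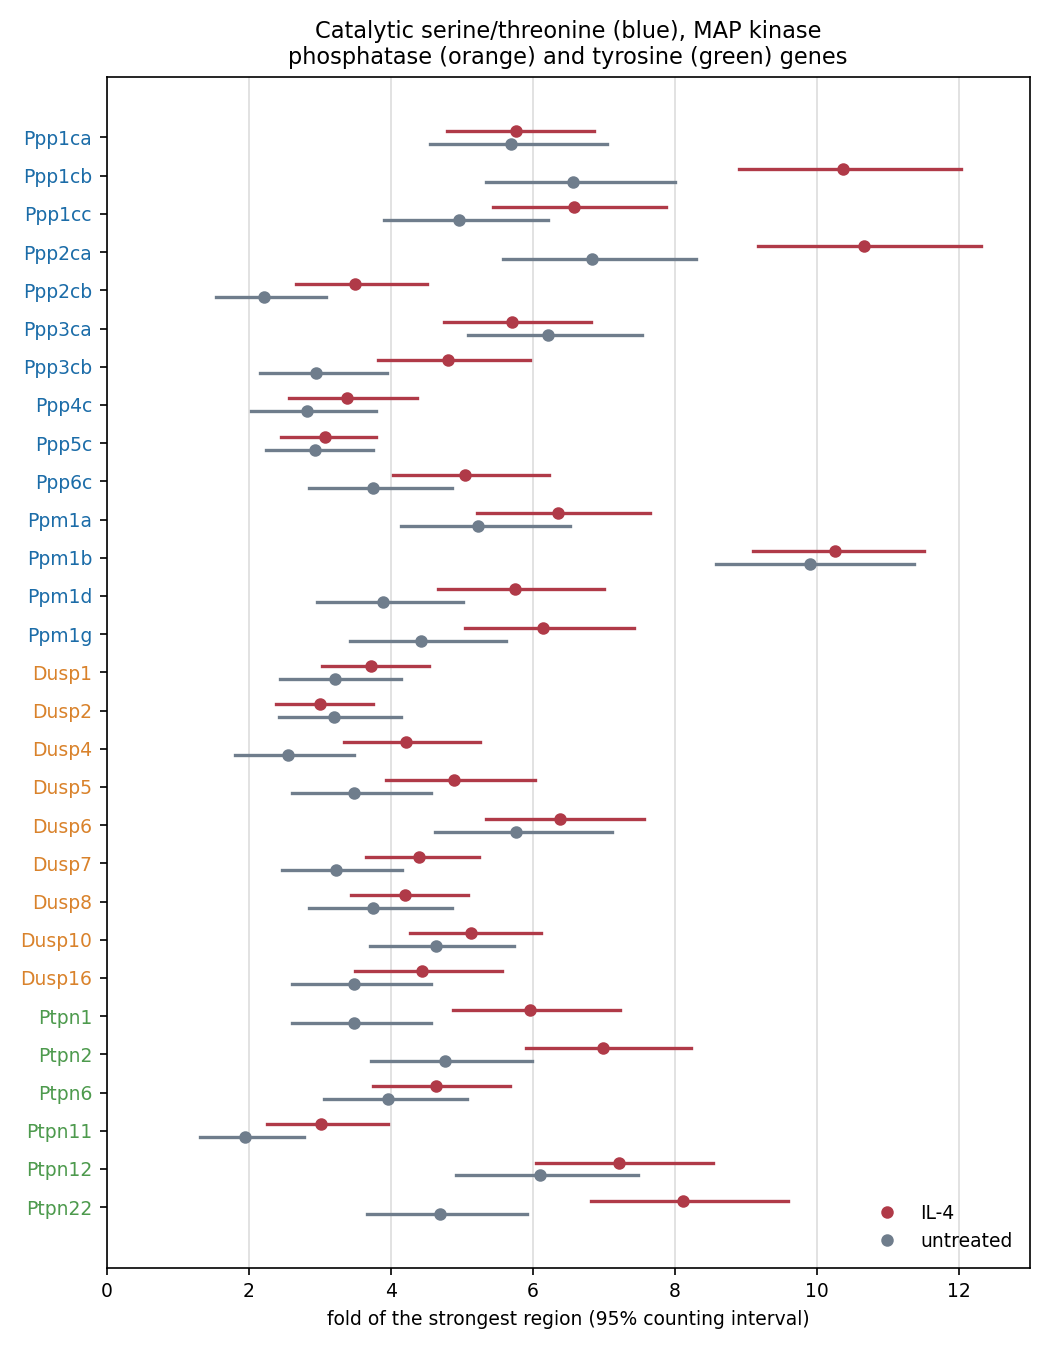
Points give the fold of the strongest region over each named gene, IL-4 above untreated, with 95% counting intervals of the summit pileup. Gene names are blue for catalytic serine/threonine, orange for MAP kinase phosphatase and green for tyrosine genes, and the intervals lie apart for Ppp1cb, Ppp2ca, Ptpn1 and Ptpn22 of the genes drawn.

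The atypical dual-specificity genes, which lack the MAP kinase binding part, ranged widely. Dusp23 was the strongest of all Dusp genes with a fold of 8.45 (95% counting interval 7.30 to 9.74, 190 fragments) in the IL-4 library, against 6.51 (5.30 to 7.91, 99 fragments) in the untreated library, and Dusp22, which restrains T cell receptor signalling, was at 6.64 (5.50 to 7.94) in the IL-4 library, against 5.57 (4.44 to 6.89) in the untreated library. Dusp3 was at 5.26 with IL-4 and 3.55 untreated, at different places in the libraries. Dusp28 was at 3.46 with IL-4 and 3.14 untreated. Dusp12 had the highest ratio of the class, 2.05, with a fold of 3.85 (95% counting interval 2.98 to 4.90, 64 fragments) in the IL-4 library, against 1.88 (1.26 to 2.70, 27 fragments) in the untreated library, and its intervals were apart. Its promoter (RefSeq, GRCm38.p6, chr1:170885491-170885790, minus strand) is shown because it is also the one Dusp promoter with the STAT6 type of palindrome, in capitals, and it is 48.7% GC.
Dusp12: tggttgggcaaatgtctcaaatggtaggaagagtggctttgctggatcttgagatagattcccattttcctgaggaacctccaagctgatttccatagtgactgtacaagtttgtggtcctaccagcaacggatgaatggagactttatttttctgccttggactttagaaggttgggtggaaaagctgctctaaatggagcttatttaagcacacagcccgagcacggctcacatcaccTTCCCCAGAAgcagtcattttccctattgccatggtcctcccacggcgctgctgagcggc

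Dusp21, on chromosome X, had no region in either library.

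Of the tyrosine phosphatase genes, 16 of 17 carried a region in both libraries (background 75.6%), and the ratios ran from 1.13 to 2.03. These genes are long, with a median of 59.1 kb. Of all genes of 40 to 100 kb, 96.4% had a region with IL-4 and 93.2% untreated. Ptpn22, a brake on immune receptor signalling, had a fold of 8.12 (95% counting interval 6.82 to 9.60, 136 fragments) in the IL-4 library, against 4.69 (3.67 to 5.92, 69 fragments) in the untreated library, with intervals apart. That region lay past the far end of the gene (chromosome 3, 103914160 to 103914728), within 1 kb of an end of Rsbn1. Ptpn1, the PTP1B gene (chromosome 2, 167930750 to 167979385), was at 5.97 (4.88 to 7.23) in the IL-4 library, against 3.49 (2.61 to 4.56) in the untreated library, again apart, with the IL-4 region at chromosome 2, 167932013 to 167932619 over a start and the strongest untreated region inside the gene. The untreated fold at that start was 3.42. Ptpn18 had the highest ratio, 2.03, at 5.31 (4.31 to 6.47) in the IL-4 library, against 2.62 (1.87 to 3.56) in the untreated library, inside the gene.

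The other tyrosine genes known from immune signalling differed less. Ptpn2, the TCPTP gene, was at 6.99 (5.90 to 8.23) in the IL-4 library, against 4.76 (3.73 to 5.997) in the untreated library, with intervals that just overlapped. Ptpn12, the cytoskeletal PTP-PEST, was at 7.21 (6.05 to 8.54) in the IL-4 library, against 6.10 (4.92 to 7.48) in the untreated library. Ptpn6, the SHP-1 gene of blood cells, held 5 regions in the IL-4 library and 5 in the untreated library and was at 4.64 (3.75 to 5.67) in the IL-4 library, against 3.97 (3.06 to 5.07) in the untreated library, at different places. Ptpn11, the SHP-2 gene, was the weaker SHP gene at 3.02 (2.26 to 3.97) in the IL-4 library, against 1.94 (1.31 to 2.78) in the untreated library. Ptpn7, a leukocyte phosphatase of ERK and p38, was at 6.16 with IL-4 and 5.43 untreated in a region within 1 kb of an end of Arl8a. Ptpn23 was at 5.54 with IL-4 and 4.83 untreated. Ptpn9 was marked with IL-4 alone, at a fold of 3.56 (2.72 to 4.57) at its start. The nearest untreated region lay 10.1 kb from the gene.

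In all, 12 members (9.23%) were marked with IL-4 alone and 2 (1.54%) untreated alone, near the backgrounds of 9.10% and 1.86%. The strongest of the 12 were Ptpn9, Ppp1r27 (fold 3.26, a region within 1 kb of an end of Mcrip1), Ppp1r8, the nuclear PP1 inhibitor NIPP1 (3.08, at its start), Ppp3cc (2.79) and Ppp1r3f (2.61). The other 7 had folds of 1.84 to 2.55. Those marked untreated alone, Ppp1r3a, of the muscle glycogen-targeting PP1, and Ppp3r2, had folds of 2.01 and 2.15. Ppp2r3d and Dusp21 (1.54% of members, background 13.4%) had no region in either.

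The members held 815 regions in the IL-4 library and 507 in the untreated library, a ratio of 1.61 (95% counting interval 1.44 to 1.80), beside 1.48 over all protein-coding genes. Of these, 45.4% of IL-4 regions overlapped an untreated region and 73.8% of untreated regions an IL-4 region, beside 45.7% and 68.6% over all genes. Per 10 kb of window, dual-specificity genes held 1.74 and 1.06 regions, tyrosine genes 1.26 and 0.870, and serine/threonine genes 1.12 and 0.678, beside 1.048 and 0.706 over all genes. Dusp genes are short, and short genes in general held more regions per 10 kb, 1.67 and 1.02 over all genes of 5 to 15 kb. Ppp1r16b held 31 regions in the IL-4 library and 19 in the untreated library and Ptpn14 33 regions in the IL-4 library and 29 in the untreated library. The densest with IL-4 were Dusp6, at 4.84 regions per 10 kb with IL-4 and 3.63 untreated, and Ppp1r1b, the dopamine-regulated PP1 inhibitor DARPP-32, at 4.48 and 0.747. The densest untreated was Dusp28, at 3.55 with IL-4 and 5.33 untreated.

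**Figure D5:**
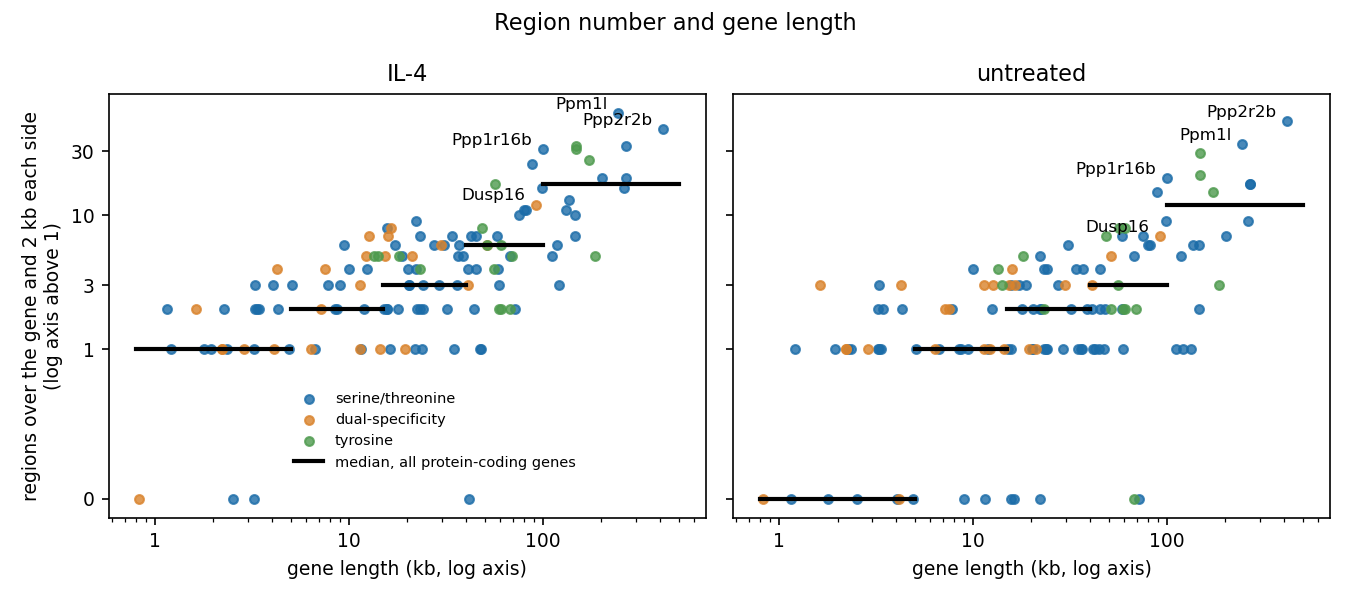
Each point is a phosphatase gene, placed by its length in kb (log axis) and the number of regions over it and 2 kb each side, with the IL-4 library on the left and the untreated library on the right, and black lines give the median of all protein-coding genes in 5 length bands. Region number goes with length, and Ppm1l, with 58 and 34 regions, lies above the medians of its band, 17 and 12.

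Of 40 phosphatase genes outside the symbol rule, 39 carried a region in each library (backgrounds 84.7% and 77.5%), and 39 passed the q limit with IL-4 and 35 untreated (backgrounds 71.2% and 49.2%). Phlpp1 and Phlpp2, the PHLPP pair, had strongest folds of 10.3 with IL-4 and 8.65 untreated for Phlpp1 and 7.23 with IL-4 and 5.30 untreated for Phlpp2. Ppp2ca, Ppp1cb and Ppm1b lay at the level of Phlpp1 in the IL-4 library, and Ppm1b lay above it in the untreated library. Ptprc, the leukocyte receptor phosphatase CD45, was at 5.16 with IL-4 and 3.02 untreated.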

How the data were processed

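The peak lists, 1 per library, were used. Bowtie 0.12.8, MACS2 2.2.7.1, DiffBind and mm10 are named per the submitters' processing notes, without roles. Settings, and whether a control library entered, are not given in the sources used here. Each deposited list holds a fold enrichment, which is the authors' ratio of summit pileup to local background with 1 added to each, and the authors' −log10 p and −log10 q. The deposited integer score, 10 times the −log10 p, was not used further. Pileup and background were recovered from fold and p, and the pileups lay within 0.00469 of whole numbers. This step was tested on simulated data.

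RefSeq gene spans and promoters are on GRCm38.p6, whose coordinates mm10 shares. A gene had a region when 1 bp or more overlapped the gene body plus 2 kb each side. Starts and strands were known for 105 of 130 members. The planned split by catalytic protein motif was not run, since no protein sequences were used here.

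The members and lists were chosen with earlier results of these data known. Named genes were a preset list of enzymes and subunits plus, in each class, those with the highest folds, the most regions, the highest and lowest ratios and the strongest regions in 1 library alone. Genes named for an end near a region, the response element, Ppp1ccb, Ppp1r16b, Ppm1f and Ppm1k were chosen after their values were seen. Alternatives changed window, threshold, list length, overlap rule, gene set and, added after the data were seen, scaling and shared position of the strongest regions. Python 3.11.15, numpy 2.4.6, pandas 2.3.3, scipy 1.17.1 and matplotlib 3.10.9 were used.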

Additional observations from a re-analysis of the deposited data

How the results depend on the processing

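No paired analysis was possible because each group held 1 library. Of 74 counts and ratios recomputed over all members, 58 stayed within 1.5 times the reported count or within the interval of the reported ratio. With −log10 q at 5 or more, 35 members were marked with IL-4 alone (background 22.9%) and 0 untreated alone (background 0.941%). At that q limit 14 were higher by 1.5 times, and the ratio of region numbers was 2.199. At a fold of at least 3, the untreated library marked 72 members, the IL-4 library alone 29, the untreated library alone 1, 12 were higher by 1.5 times and the ratio was 1.81. The ratio of region numbers was 1.26 with lists of equal length and 1.32 within 1 kb of either gene end. Without the 50 members whose window overlaps another gene, so over 80 members, the counts were 77 with IL-4, 67 untreated, 1 in the untreated library alone and 12 higher by 1.5 times. Division by the median ratio left 5 higher by 1.5 times, Ppp1r14b among them. No count of members lower by 1.5 times rose above 0 under these settings. The smallest summit pileups of the members' strongest regions were 30 fragments with IL-4 and 26 untreated.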

Other observations

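The 3 members on chromosome X, Dusp9, Dusp21 and Ppp1r3f, had no region in the untreated library, and Dusp9 and Ppp1r3f had weak ones with IL-4. Over all 966 protein-coding genes of that chromosome, 37.0% had a region with IL-4 and 24.9% untreated, so few regions there are a feature of the chromosome in both lists.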
